A study of Mus musculus with 4 samples.

Results

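STAT factors and the SOCS family inhibitors that restrain them were followed in mouse bone marrow-derived macrophages, that is, macrophages grown from marrow cells in culture. The 9 genes, picked by symbol among the 55401 Ensembl genes of the count table, were the transcription factors Stat2, Stat3, Stat4, Stat5a, Stat5b and Stat6 and the inhibitors Socs1, Socs3 and Cish. All 9 were found as 1 row each, and all 9 passed the filter on low counts. The cells came from C57BL/6J mice, and every culture was transduced on day 1 with CRISPR-Cas9 lentivirus (multiplicity of infection 30) and then differentiated for 5 days. In 2 libraries the virus was directed at Adcy7, the gene of an adenylyl cyclase (Adcy7 knockout). In the other 2 it was directed at Rosa, a locus commonly used as a neutral target (Rosa control). The labels give no further stimulus, and they do not say how many guides, mice or cultures stand behind a group, so the error behind each p-value is the spread of these 4 libraries, which may be technical. All were labelled batch 1.

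Cytokine receptors carry Janus kinases on their inner side, and a bound ligand lets these kinases phosphorylate the receptor and then a STAT protein. Phosphorylated STATs pair, enter the nucleus and switch on target genes, among them the genes of the SOCS family, whose products block kinase or receptor and so close a feedback loop. In macrophages, STAT3 carries signals of interleukin 10 and interleukin 6, STAT5 those of the granulocyte-macrophage factor, STAT6 those of interleukin 4, and STAT2 those of type I interferons. mRNA levels do not report how much of any STAT was phosphorylated.

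The libraries held between 61782358 and 71914179 estimated counts. Levels are given as CPM, counts scaled to the total of their library. Adcy7 itself was at 59.4 and 58.8 CPM in the knockout libraries, against 122 and 125 CPM in the control libraries, so its mRNA was lower but still present. Of the 15832 genes tested with edgeR (quasi-likelihood, Benjamini-Hochberg adjusted over all of them), 7848 passed an adjusted p of 0.05, or 49.6%. That fit gives all fold changes below, as knockout over control. Of 8 macrophage markers, 6 were lower and 1 higher in the knockout, with a summed level of 22979 and 22780 CPM, against 57379 and 59357 CPM in the control. Lyz2, the lysozyme gene, made up most of this difference, at 16468 and 16440 CPM in the knockout, against 50358 and 52209 CPM in the control, and the other 7 markers summed to 6511 and 6340 CPM, against 7021 and 7148 CPM. Of these, Cd14 was the marker that rose, at 2623 and 2609 CPM in the knockout, against 1295 and 1485 CPM in the control. Its rise offset falls of other markers in that sum. Mertk was at 0.278 and 0.356 CPM, against 18.3 and 16.7 CPM, and Fcgr1 at 16.4 and 15.9 CPM, against 152 and 122 CPM. Itgam was at 744 and 764 CPM, against 1406 and 1371 CPM, and Csf1r and Adgre1 also fell. Cd68, which did not pass, was at 956 and 894 CPM, against 916 and 855 CPM. Markers of other cells moved too. Eosinophil markers, 5 of 6 higher, summed to 297 and 239 CPM in the knockout, against 34.2 and 31.5 CPM in the control, most of it Prg2. Mast cell and basophil markers, 6 of 6 tested of 7 higher, summed to 32.7 and 33.6 CPM, against 3.06 and 2.72 CPM. Dendritic cell markers, 3 of 4 tested of 6 higher, summed to 43.8 and 43.8 CPM, against 3.97 and 3.92 CPM, most of it Ccr7. Platelet markers (6 of 6 higher) summed to 335 and 299 CPM, against 197 and 181 CPM, and B cell markers (4 of 6 higher, 1 lower) to 45.9 and 48.7 CPM, against 34.9 and 32.8 CPM. Neutrophil markers, 3 of 7 lower, summed to 3744 and 4860 CPM, against 4866 and 4166 CPM. In bulk RNA, fewer cells of a type and less RNA per cell cannot be told apart, and the part of these cells in the values below was not tested.

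All 3 inhibitor genes rose, while the STAT genes split. Of the 9 genes, 4 rose (Stat3, Socs1, Socs3 and Cish), 2 fell (Stat2 and Stat4) and 3 did not pass (Stat5a, Stat5b and Stat6). Of all genes tested, 25% were higher and 24.6% lower by the same rule. The libraries of the groups did not overlap for 8 of the 9 genes, against 75.2% of all genes tested. The median absolute log2 fold change of the 9 genes was 0.64, against 0.53 over all tested genes. The median signed log2 fold change of all tested genes was 0.01.

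**Figure D1:**
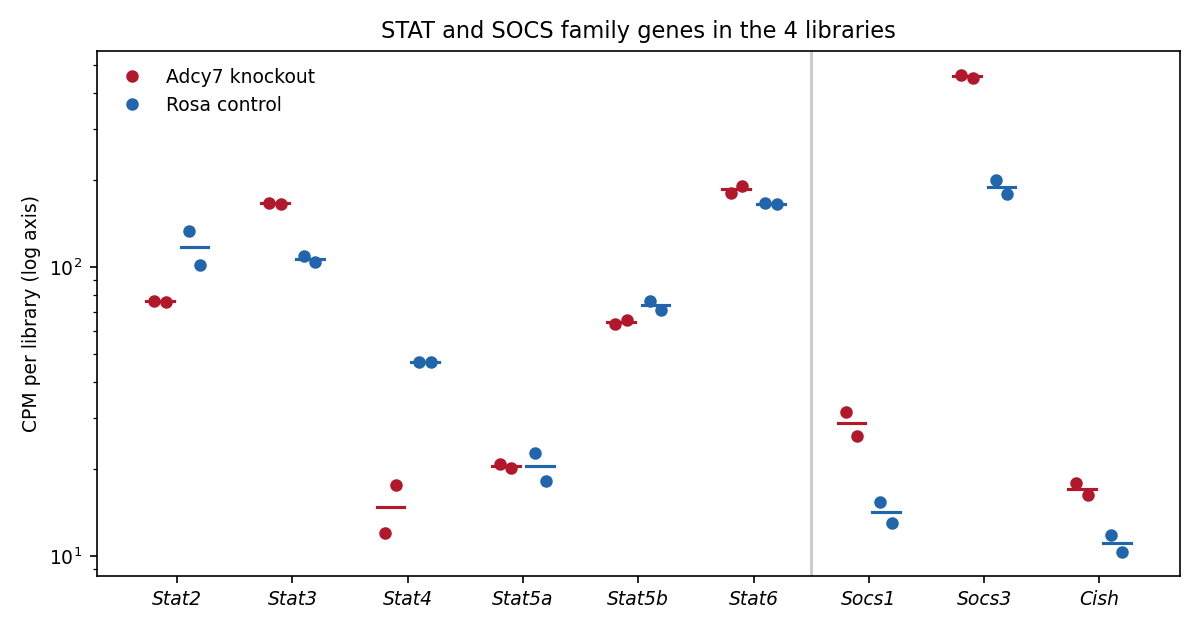
CPM of the 9 genes in each of the 4 libraries on a log axis; points are libraries, short lines are group means, Adcy7 knockout in red and Rosa control in blue. The Socs3 points of the knockout lie at 451 and 464 CPM, above the control points at 179 and 200.5 CPM, and Stat5a is the gene whose groups overlap.

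Socs3 codes for an inhibitor that binds the interleukin 6 receptor chain gp130 and the attached Janus kinase, and so limits STAT3 activation. It was at 464 and 451 CPM in the knockout libraries, against 200.5 and 179 CPM in the control libraries. Both knockout libraries were high, and the groups did not overlap. The fitted change was 2.44-fold, or 1.29 on the log2 scale (standard error, SE, 0.09; adjusted p of 9.11e-07 in edgeR). Socs1 codes for the inhibitor best known for blocking Janus kinases after interferon signals. It was at 31.4 and 26.1 CPM in the knockout, against 15.3 and 13.0 CPM in the control. Its lower knockout library still lay above both control libraries, and the change was 2.06-fold (log2 1.04, SE 0.14, adjusted p of 0.000117 in edgeR). Cish codes for a SOCS family protein induced by STAT5, first known as a brake on cytokine receptors that use STAT5. It was at 17.9 and 16.3 CPM in the knockout, against 11.8 and 10.3 CPM in the control. The groups were apart, though closer than for the other inhibitors, and the change was 1.56-fold (log2 0.64, SE 0.14, adjusted p of 0.0029 in edgeR). Cish shares its genomic span with a pair of transcripts on the other strand, Gm17040 and Gm17041. Gm17040 had 15 counts in knockout replicate 1 and none in the other 3 libraries, and Gm17041 had no count.

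The promoter windows of the 3 inhibitor genes are shown because SOCS genes are known STAT targets, and the letters of such sites can be searched directly. Each window runs from 250 bases before to 50 after a RefSeq start of the GRCm38.p6 build, in the direction of transcription, 5′ to 3′. The reads were aligned to GRCm39, so these coordinates belong to the older build and are not used with the counts. Capitals mark matches to the STAT site TTCNNNGAA, the STAT6-type site (TTC and GAA with 4 free bases between them), the interferon element core (GAAA, 2 free bases, GAAA) or the cyclic AMP element TGACGTCA, on either strand.
Socs3, chr11:117969317-117969616, minus strand: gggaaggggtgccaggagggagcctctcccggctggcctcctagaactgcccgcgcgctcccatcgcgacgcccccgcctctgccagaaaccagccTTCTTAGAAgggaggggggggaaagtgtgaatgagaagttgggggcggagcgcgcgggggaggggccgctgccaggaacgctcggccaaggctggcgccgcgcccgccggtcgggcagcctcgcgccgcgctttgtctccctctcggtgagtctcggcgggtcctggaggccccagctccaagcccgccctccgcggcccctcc
Socs1, chr16:10785487-10785786, minus strand: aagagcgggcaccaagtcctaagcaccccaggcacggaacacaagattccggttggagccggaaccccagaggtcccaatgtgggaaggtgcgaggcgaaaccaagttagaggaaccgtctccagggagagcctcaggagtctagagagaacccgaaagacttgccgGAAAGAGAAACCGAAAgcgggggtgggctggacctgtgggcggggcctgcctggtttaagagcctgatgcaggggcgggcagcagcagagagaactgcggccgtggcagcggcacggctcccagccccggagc
Cish, chr9:107296409-107296708, plus strand: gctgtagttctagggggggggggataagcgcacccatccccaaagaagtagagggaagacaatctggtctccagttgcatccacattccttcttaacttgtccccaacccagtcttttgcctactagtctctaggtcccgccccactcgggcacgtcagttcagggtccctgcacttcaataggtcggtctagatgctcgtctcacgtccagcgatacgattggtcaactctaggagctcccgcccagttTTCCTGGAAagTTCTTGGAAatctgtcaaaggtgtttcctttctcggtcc

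The Socs3 window held 1 STAT site, at bases 97 to 105, which leaves 145 bases between the site and the start. The Cish window held 2 STAT sites, at bases 251 to 259 and 262 to 270, separated by 2 bases and lying just after the start. The Socs1 window held no STAT site but 2 interferon element cores on the strand shown, at bases 168 to 177 and 174 to 183, which overlap by 4 bases. Of all 32851 promoter windows of this length, 8.3% held at least 1 STAT site and 0.457% held 2 or more, and 3.44% held an interferon element core and 0.225% held 2 or more. The full cyclic AMP element TGACGTCA, found in 1.79% of all windows, was in none of the 12 windows of the 9 genes. Shorter forms of this element were not searched. The windows of Stat3, Stat5a, Stat5b and Stat6 held none of the 4 letter patterns, and 1 of 2 Stat4 windows held an interferon element core. A match describes letters only, and no binding was measured.

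**Figure D2:**
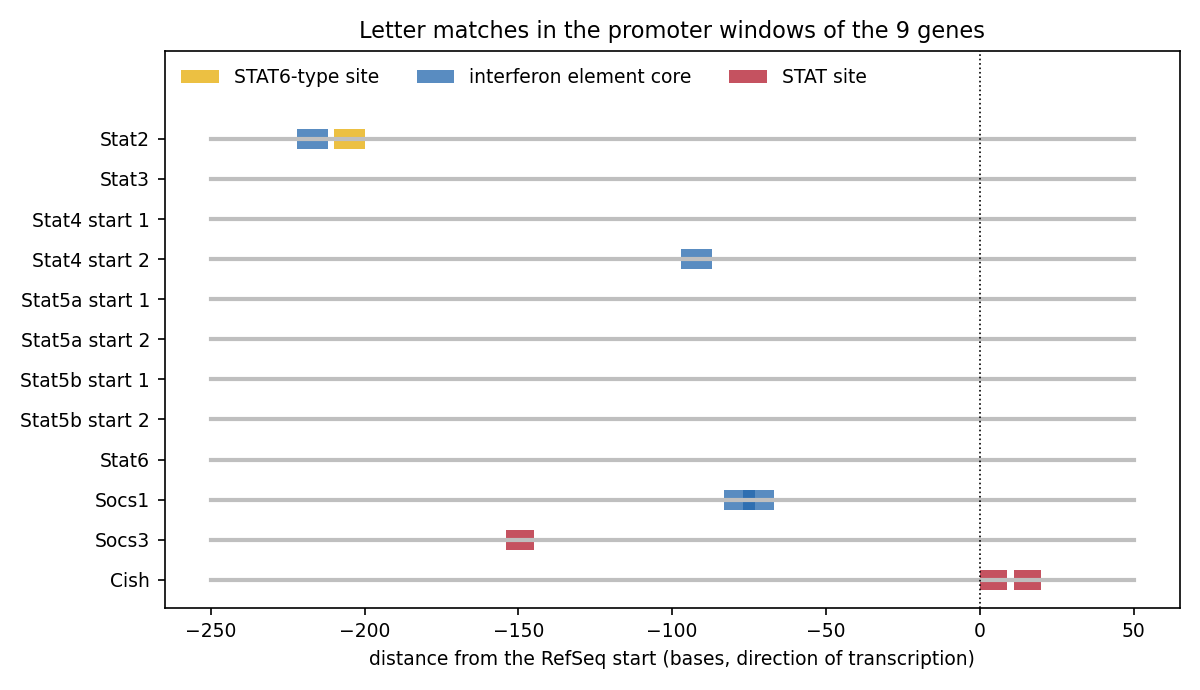
Position of letter matches in the 12 promoter windows of the 9 genes, as distance in bases from the RefSeq start; bars are matches, coloured by pattern, and grey lines are the windows. STAT sites appear only in the windows of Socs3 (1) and Cish (2), and interferon element cores in those of Stat2 (1), Stat4 (1) and Socs1 (2).

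Stat3, the main relay of interleukin 10 and interleukin 6 signals, was the STAT gene that rose. It was at 167 and 166 CPM in the knockout libraries, against 109 and 104 CPM in the control libraries. Replicates differed by little and the groups were well apart, with a 1.58-fold change (log2 0.66, SE 0.09, adjusted p of 0.000111 in edgeR). Within a library, the ratio of Socs3 to Stat3 on the scale of CPM per kilobase of exonic length was 9.16 and 8.96 in the knockout, against 6.07 and 5.67 in the control. This ratio does not depend on how libraries are scaled, and its groups did not overlap. The Stat3 span overlaps the end of Stat5a on the opposite strand by 72 bases in the older annotation, and reads in such a stretch may not be told apart without strand.

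Stat4, which mediates interleukin 12 signals and is best known from T and NK cells, had the largest change of the 9 genes. It was at 12.01 and 17.7 CPM in the knockout libraries, against 47.1 and 46.9 CPM in the control libraries. The knockout libraries differed from each other more than the control libraries did, yet both were far below them. Its level fell to 0.317 of the control (log2 -1.66, SE 0.15, adjusted p of 5.78e-06 in edgeR). Of 10 T and NK cell markers, Ncr1 and Gzma had no count in any library, and Cd3d, Cd3e, Cd3g, Cd4, Cd8a, Trac and Klrb1c were each below 0.5 CPM in every library. Their summed level was 9.48 and 8.27 CPM in the knockout, against 1.57 and 1.46 CPM in the control, and most of it came from Lck, a kinase gene of T cells, at 8.16 and 7.25 CPM, against 1.03 and 1.29 CPM. The marker sum is thus mostly 1 gene, and the part of T and NK cells in the Stat4 values was not tested.

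Stat2, the partner of interferon factor Irf9 in the complex ISGF3 that drives type I interferon responses, also fell. It was at 76.3 and 75.9 CPM in the knockout libraries, against 134 and 102 CPM in the control libraries. The control libraries were spread more widely, with replicate 1 the higher, and the groups did not overlap. The level was 0.654 of the control (log2 -0.61, SE 0.12, adjusted p of 0.00153 in edgeR), and without control replicate 1 the log2 fold change was -0.43 at an adjusted p of 0.0332. The Stat2 window is shown because it was the window of a STAT gene with 2 neighbouring matches, an interferon element core read on the other strand (bases 29 to 38) and, 2 bases on, a STAT6-type site (bases 41 to 50). STAT6-type sites stood in 6.95% of all windows.
Stat2, chr10:128270248-128270547, plus strand: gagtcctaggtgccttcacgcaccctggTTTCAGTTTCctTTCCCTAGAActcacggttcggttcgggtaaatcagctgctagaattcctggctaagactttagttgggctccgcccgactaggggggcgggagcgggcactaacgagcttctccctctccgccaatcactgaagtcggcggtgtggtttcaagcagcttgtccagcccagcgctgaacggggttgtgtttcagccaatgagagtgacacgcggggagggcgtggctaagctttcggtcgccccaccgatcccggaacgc

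Stat6, the relay of interleukin 4 and interleukin 13, was at 181 and 191 CPM in the knockout libraries, against 167 and 165 CPM in the control libraries. The groups did not overlap, but the log2 fold change of 0.18 (SE 0.09, 95% interval -0.01 to 0.37) had an adjusted p of 0.111 in edgeR and did not pass. Its end overlaps that of Nab2 on the opposite strand by 40 bases in the older annotation, and Nab2 was at 44.4 and 38.6 CPM, against 39.6 and 37.1 CPM. Stat5b, which with Stat5a relays granulocyte-macrophage factor and interleukin 3, was at 63.5 and 65.7 CPM, against 76.6 and 71.1 CPM. The knockout libraries were slightly the lower, with a log2 fold change of -0.18 (95% interval -0.39 to 0.03, adjusted p of 0.144 in edgeR). Stat5a was at 20.8 and 20.2 CPM, against 22.7 and 18.2 CPM, and its knockout libraries lay between the control libraries. Its interval ran from -0.27 to 0.32 on the log2 scale, so changes beyond about 1.25-fold upward lie outside it. Since Stat5a and Stat5b are close copies that can share reads, their counts were also summed. The sum was at 84.4 and 85.9 CPM in the knockout, against 99.3 and 89.3 CPM in the control (log2 -0.13, SE 0.09, adjusted p of 0.275 in edgeR).

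**Figure D3:**
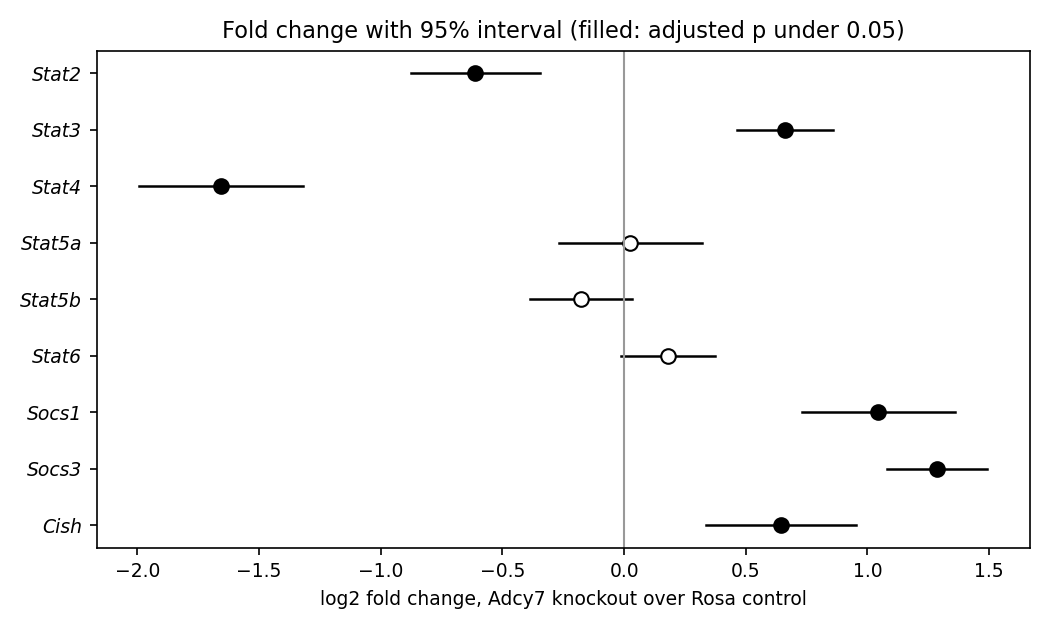
Log2 fold change of each gene, Adcy7 knockout over Rosa control, with its 95% interval from the quasi-likelihood fit; filled points had an adjusted p under 0.05. Socs1, Socs3, Cish and Stat3 lie right of 0, Stat2 and Stat4 left of it, and the intervals of Stat5a, Stat5b and Stat6 include 0.

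To compare levels between genes, CPM was divided by the exonic length in kilobases, which counts every annotated exon of a gene. The order below therefore depends on these annotated lengths, and in the control Stat4 is above Stat3 on this scale but below it in CPM. On this scale, Socs3 was the highest of the 9 genes in both groups, at 158 in the knockout and 65.6 CPM per kb in the control. Stat6 came next, at 42.2 and 37.6 CPM per kb. In the knockout, the order went on with Stat3 at 17.5, Stat2 at 12.8, Stat5b at 11.7, Socs1 at 9.90, Stat4 at 3.83, Stat5a at 2.88 and Cish at 2.66 CPM per kb. In the control it went on with Stat2 at 19.9, Stat5b at 13.3, Stat4 at 12.1, Stat3 at 11.2, Socs1 at 4.87, Stat5a at 2.87 and Cish at 1.73 CPM per kb. Within each group, no neighbours in this order overlapped in their 2 libraries, though the gaps were small between Stat5a and Cish in the knockout and between Stat5b, Stat4 and Stat3 in the control.

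The makeup of STAT mRNA therefore differed between the groups, while its summed CPM differed little. The summed level of the 6 STAT genes was 520.1 and 536 CPM in the knockout libraries, against 555 and 507 CPM in the control libraries, and these ranges overlapped. This overlap is of CPM not divided by length and does not carry over to CPM per kb, the scale of the shares below. Of the summed CPM per kb of the 6 genes, Stat3 made up 19.2% ± 0.649 in the knockout and 11.5% ± 0.293 in the control (SD, n = 2 each). Stat4 made up 4.203% ± 1.01 in the knockout and 12.5% ± 0.70 in the control. Stat2 made up 14.1% ± 0.483 in the knockout and 20.4% ± 2.74 in the control, and Stat6 46.4% ± 0.37 in the knockout and 38.8% ± 1.96 in the control. In CPM per kb, Stat3 exceeded Stat4 by 5.64 and 3.81 times in the knockout libraries, whereas the ratio was 0.940 and 0.900 in the control libraries. The size of these ratios depends on the exonic lengths used, 9.527 kb for Stat3 and 3.872 kb for Stat4. In CPM, Stat3 was above Stat4 in the control libraries too, at 109 and 104 CPM, against 47.1 and 46.9 CPM.

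**Figure D4:**
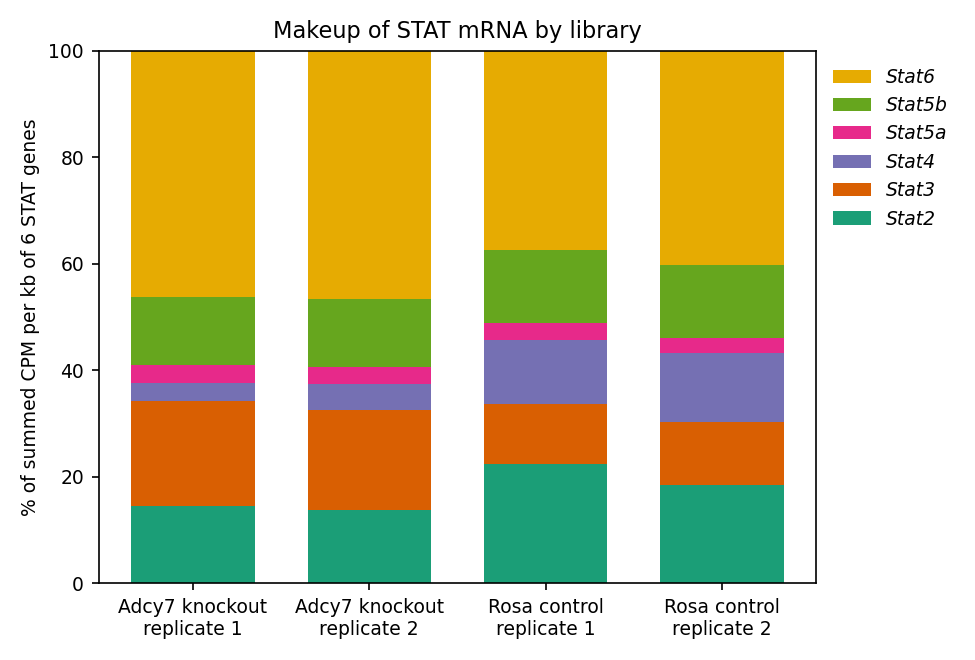
Share of each STAT gene in the summed CPM per kb of the 6 STAT genes, as stacked bars for each library. The Stat3 share is 19.7% and 18.8% in the knockout libraries, against 11.3% and 11.7% in the control libraries, and the Stat4 share is 3.49% and 4.92%, against 12.04% and 13.0%.

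Of the kinases upstream, Jak2 rose most. Of 4 Janus kinase genes, 2 rose and 2 did not pass, where 25% of all genes tested were higher and 24.6% lower by the same rule. Jak2, the kinase of the granulocyte-macrophage and interferon gamma receptors among others, was at 325 and 358 CPM in the knockout libraries, against 49.1 and 48.3 CPM in the control libraries. This was 7.08-fold (log2 2.82, SE 0.10, adjusted p of 3.45e-09 in edgeR), and the groups were far apart. Jak1, which serves gp130 and interferon receptors, was at 215 and 232 CPM, against 154 and 156 CPM, a 1.46-fold rise. Tyk2 and Jak3 had log2 fold changes of -0.20 and -0.17 and adjusted p values of 0.127 and 0.277 in edgeR.

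The other inhibitors did not all share the direction of Socs1, Socs3 and Cish, and some rose while others fell. Of 5 further SOCS genes, 2 rose (Socs2 and Socs4), 2 fell (Socs5 and Socs6) and Socs7 did not pass. By the same rule, 25% of all genes tested were higher and 24.6% lower, which also stands beside the next list. Socs6 was at 13.7 and 14.7 CPM in the knockout, against 24.3 and 24.1 CPM in the control. Socs2, a STAT5 target and brake on growth hormone signals, was near the limit of detection, with 39 and 40 counts in the knockout, against 8 and 4 counts in the control. Without control replicate 2, the calls of Socs2 and Socs5 were lost (adjusted p of 0.0822 and 0.0713 in edgeR), and without control replicate 1 the Socs2 log2 fold change was 3.32, against 2.73 with all libraries. The call of Socs4 was lost without the filter on low counts (adjusted p of 0.0587 in edgeR). Of 8 genes of PIAS proteins, which bind STATs in the nucleus, and of phosphatases that act on STATs or Janus kinases, 3 fell and 1 rose. The phosphatase gene Ptpn6 (SHP-1) was at 248 and 248 CPM, against 516 and 499.6 CPM, or 0.493 of the control. Pias1 and Pias3 had log2 fold changes of -0.71 and -0.85. The rise of Pias4 by 0.29 did not pass without control replicate 1 or without control replicate 2 (adjusted p of 0.111 and 0.338 in edgeR), nor without the filter or with edgeR's older quasi-likelihood method. Ptpn1 and Ptpn11, phosphatase genes that did not pass, had adjusted p values of 0.901 and 0.182 in edgeR.

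Most ligand genes rose, several of them steeply. Of 17 cytokine genes listed, 13 were tested, and 9 rose, 2 fell and 2 missed the threshold, at a median log2 fold change of 4.33. Among all genes tested, 25% were higher and 24.6% lower. Csf3, Il6, Il10 and Il12a, ligands of receptors that signal through STAT3 or STAT4, rose 101-fold, 147-fold, 36.0-fold and 26.3-fold. The Il6 value rests on 58 and 24 counts in the control, and without control replicate 1 its log2 fold change was 7.99, against 7.20 with all libraries. Il6 was at 69.2 and 109 CPM in the knockout libraries, against 0.882 and 0.343 CPM in the control libraries, and Il10 at 37.7 and 53.7 CPM, against 1.40 and 1.16 CPM. Csf2, the granulocyte-macrophage factor gene, which lies outside the naming rule and was chosen after its values were seen, had 154 and 108 counts in the knockout and none in the control, at least 22.1-fold higher against a floor of 12 pooled counts. Osm and Il4 did not pass (adjusted p of 0.415 and 0.785 in edgeR), and Il3 and Il11 had no count in any library.

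Receptor chains moved both ways. Of 24 listed, 21 were tested, and 10 fell, 5 rose and 6 missed the threshold, at a median log2 fold change of -0.17. Among all genes tested, 24.6% were lower and 25% higher. Il10ra, the chain that binds interleukin 10, was at 44.3 and 43.0 CPM in the knockout, against 187 and 196 CPM in the control, so the receptor gene was lower where Il10 itself was higher. Ifngr1, the binding chain for interferon gamma, was at 46.0 and 48.9 CPM, against 191 and 186 CPM. Il7r, the interleukin 7 receptor chain, was at 109 and 125 CPM, against 8.41 and 7.37 CPM, a rise of 3.90 on the log2 scale. Csf2rb and Csf2rb2, the signalling chain shared by the granulocyte-macrophage factor, interleukin 3 and interleukin 5 receptors and its mouse copy, were at 682 and 660 CPM and at 344 and 337 CPM in the knockout. Their control levels were 248 and 219 CPM and 90.2 and 77.2 CPM, and since they are close copies the split of reads between them is uncertain. Il2rg and Il4ra, a chain shared by several interleukin receptors and the binding chain for interleukin 4, did not pass (adjusted p of 0.248 and 0.744 in edgeR). Eosinophils, basophils and mast cells also carry Csf2rb, and their marker sums were higher in the same knockout libraries, as given above. Their part in the rise was not tested.

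**Figure D5:**
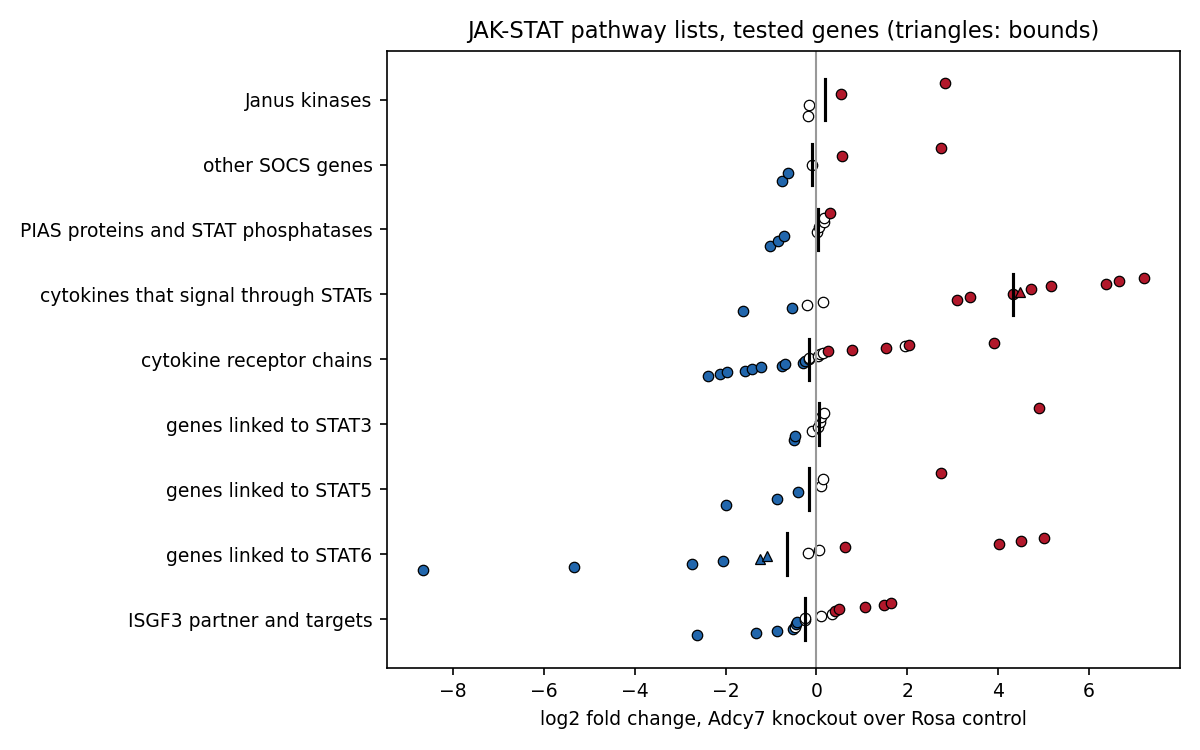
Log2 fold change, Adcy7 knockout over Rosa control, of the tested genes of 9 pathway lists; filled points passed an adjusted p of 0.05, red higher and blue lower, open points did not pass, triangles are bounds for Csf2, Ccl24 and Mgl2, which had no count in 1 group, the leftmost point is the fitted value of Mrc1, which rests on 0 and 8 counts in the knockout, and black bars are list medians with those bounds. The median of the cytokine list is 4.33, the value of the low-count gene Il23a, while the other 8 medians lie between -0.64 and 0.19.

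The listed genes linked to each STAT went both ways. These lists leave out Socs3 and Cish, given above, which both rose. Over all genes tested, 25% were higher and 24.6% lower by the same rule. Of 8 genes linked to STAT3, 1 rose, 2 fell and 5 did not pass. Il1rn, the interleukin 1 receptor antagonist gene, was at 348 and 436 CPM in the knockout, against 13.1 and 13.5 CPM in the control, a 29.8-fold rise. Etv3 and Nfil3, genes of repressors induced by interleukin 10, fell by 0.50 and 0.47 on the log2 scale, and Nfil3 lost its call without control replicate 1 (adjusted p of 0.066 in edgeR), which left 1 gene lower. Sbno2 and Mcl1 did not pass (adjusted p of 0.167 and 0.347 in edgeR). Of 6 genes linked to STAT5, Socs2 rose, Ccnd2, Bcl6 and Bcl2l1 fell and 2 did not pass, and without control replicate 2 none rose, since the call of Socs2 was lost. Ccnd2, a cyclin gene, was at 17.0 and 20.2 CPM, against 78.1 and 72.04 CPM. Bcl6, a repressor gene that STAT5 is known to silence, fell by 0.87, and Bcl2l1, a survival gene, fell by 0.41. The call of Bcl2l1 was lost without control replicate 1 (adjusted p of 0.0512 in edgeR) and without the filter on low counts (adjusted p of 0.0612). Pim1, a kinase gene induced by STAT3 and STAT5, was at 186 and 184 CPM, against 190 and 162 CPM, and its knockout libraries lay between the control libraries.

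Of 13 genes linked to STAT6, 12 were tested, and 6 fell, 4 rose and 2 missed the threshold, at a median log2 fold change of -0.64 once Ccl24 and Mgl2, at 0 in the knockout, were set at their bounds. Without knockout replicate 1, and likewise without the filter on low counts, 3 genes fell in place of 6. Arg1, the arginase gene, was at 361 and 352 CPM in the knockout, against 2289 and 2547 CPM in the control. Mrc1, the mannose receptor gene, had 0 and 8 counts in the knockout, against 1863 and 1547 counts in the control. In the other direction, Ccl22, the gene of a chemokine that draws T cells, was at 60.4 and 61.5 CPM, against 2.63 and 2.79 CPM. Alox15, a lipoxygenase gene that eosinophils also express, was at 17.6 and 18.4 CPM, against 0.487 and 0.630 CPM. Eosinophil markers, of which Alox15 is 1 of 6 listed, were higher for 5 of the 6 in the same libraries, and their part in this value was not tested. Egr2 and Cdh1 did not pass (adjusted p of 0.471 and 0.869 in edgeR).

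Genes of ISGF3, the complex that holds Stat2, also went both ways. Of Irf9 and 15 targets, all tested, 6 fell, 5 rose and 5 missed the threshold, at a median log2 fold change of -0.25. Ifit1 and Cxcl10 rose 3.10-fold and 2.80-fold, with Ifit1 at 84.7 and 123 CPM in the knockout libraries, against 38.8 and 28.8 CPM in the control libraries. Mx1 and Ifit2 had log2 fold changes of -2.63 and -1.33, with Ifit2 at 32.2 and 55.1 CPM, against 125 and 95.7 CPM. Knockout replicate 2 was the higher for Ifit1, Ifit2, Mx1 and Cxcl10, and control replicate 1 the higher for the same 4 genes. Without control replicate 2, 3 genes of the list rose in place of 5. Irf7 and Oas1a did not pass (adjusted p of 0.101 and 0.383 in edgeR), and Oas1a has close copies that can share reads.

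Likeness over the 4 libraries was measured as the Euclidean distance between log2 CPM values centred on each gene's mean, among 79 pathway genes. With 4 libraries in 2 groups, this distance mostly reflects the difference between the groups. Nearest to Socs3 was Csf2rb, at a distance of 0.254, which was also nearest to Socs1, at 0.530. Cish was nearest to Usp18 (0.192), an interferon-induced protease gene whose rise did not pass without control replicate 2 (adjusted p of 0.0758 in edgeR). Stat3 was nearest to Jak1 (0.152), Stat4 to the cytokine gene Il27 (0.215) and Stat2 to Oas3 (0.207), an antiviral synthetase gene whose fall did not pass without control replicate 1 (adjusted p of 0.102 in edgeR). Stat5a was nearest to Il4ra (0.0779), Stat5b to Tyk2 (0.0783) and Stat6 to Ifnar2 (0.0809).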

How the data were processed

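RNA-seq of poly(A) RNA was deposited as 1 table of estimated counts (expected counts), with no sign in the values of scaling by the authors. The submitters' processing notes name HISAT2, StringTie, fastp and edgeR with build GRCm39, without versions. Of genes with 1 to 40 counts, 30.54% to 32.17% stood at multiples of 4, and most did not. Floors take 12 pooled counts as 3 fragments, which is an assumption that these shares do not establish, and cover counting error only. Symbols for 55141 IDs, exonic lengths and neighbours came from a GRCm38 annotation, and promoter windows from RefSeq (GRCm38.p6; all 9 genes matched). Columns were matched to samples by target and replicate number. Genes were filtered with filterByExpr, scaled by TMM, then tested in edgeR 4.0.16 (bias-adjusted quasi-likelihood, 2 residual degrees of freedom) in R 4.3.3. The SE is the log2 fold change divided by the square root of F. The step was tested on simulated data. Replicates of a group differed by more than sampling noise (chi-square per degree of freedom of 11.56 and 6.7).

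The 9 genes, lists and tests were chosen with earlier results of these data known. From each pathway list, up to 4 genes with the smallest adjusted p and the 2 most abundant that did not pass are named, and the genes most like each of the 9. DESeq2 1.42.0, other scalings, no filter, counts divided by 4, a replicate block, leaving out each library and edgeR's older quasi-likelihood method, the last added after seeing the data, were alternatives.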

Additional observations from a re-analysis of the deposited data

How the results depend on the processing

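The calls of all 9 STAT and SOCS genes held under every alternative run: of the 9 genes, 4 were higher and 2 lower each time, with the count of passing genes over the whole table between 6091 and 7852. Over the 65 genes that the naming rule took, 684 of 713 values kept direction and call, 15 lost the call, 2 gained it and 12 changed sign. Every sign change was of a gene that did not pass. Leaving out each library gave log2 fold changes of -0.12 to 0.17 for Stat5a, -0.33 to 0.00037 for Jak3, -0.034 to 0.067 for Ptpn1, -0.037 to 0.33 for Osm, -0.053 to 0.14 for Il4ra, -0.012 to 0.19 for Pim1 and -0.20 to 0.30 for Cdh1. With library totals only, Ptpn1 was at -0.00023. Ifnar2, nearest to Stat6, lost its call without the filter and without either control library (adjusted p of 0.0583, 0.272 and 0.21 in edgeR). Il2rg passed without knockout replicate 2 and Irf7 without control replicate 2 (adjusted p of 0.0318 and 0.03). Socs2 was not tested with counts divided by 4. The cause of these changes was not tested.

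Replicate numbers gave no sign of pairing, since deviations of same-numbered libraries from their group means correlated at 0.015 over genes. This value cannot show whether such libraries share a mouse or culture, and the labels do not say. With the number as a replicate block, 7843 genes passed in place of 7848, and 6 of the 9 genes. With 2 libraries a group, small changes such as that of Stat6 cannot be resolved.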
